A study of Bubalus bubalis with 6 samples.

Results

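The genes of mitosis, the phase in which a cell condenses its chromosomes, pulls them apart on the spindle and divides, were followed in cultured buffalo (Bubalus bubalis) cells that the labels call intramuscular adipocytes. A list of 43 genes was chosen by function, but with earlier results of these data known. Every gene model of the deposited table that carries the name of a listed gene was kept. This gave 45 models of 40 genes, out of 19476 models in all. AURKB, BIRC5 and PRC1 matched no name and are not analysed here. For 5 of the names (CCNB2, MAD2L1, PTTG1, TPX2 and KIF23) there were 2 models each, named by protein match, and models of a shared name can share reads.

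Polyadenylated RNA was sequenced from 6 samples of day 4. The control group was labelled wild type and had received an adenovirus with EGFP, a green fluorescent protein (3 samples). The other group had received an adenovirus with lncFABP4, a long non-coding RNA, and was labelled as overexpressing it (3 samples). Cells of both groups were grown in serum in triplicate wells, were kept for 48 hours from the addition of virus, and then spent 48 hours in a medium that induces fat cell formation. Nothing states that replicates are separate animals or cultures. The p-values therefore speak of the spread among these wells alone, and that spread may be technical. The dose of virus is not given in the sources used here.

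The unit was taken to be FPKM, that is, fragments per length of model and size of library. Totals were 340165 to 360920 FPKM per sample, 10907 to 10987 models reached 1 FPKM, and relative depth, estimated from the lowest models, was 0.925 to 1.01 of that of EGFP replicate 1. FABP4, the fatty acid binding protein gene that names the RNA, stood at 154, 149 and 197 FPKM with EGFP and at 6505, 10588 and 12003 FPKM in lncFABP4 replicates 1, 2 and 3, so that replicate 1 was lowest in its group. The fat cell genes ADIPOQ and CEBPA never exceeded 0.0559 and 0.190 FPKM, so these defining markers of mature adipocytes were nearly absent. PPARG, the main transcription factor of fat cells, was present, at means of 12.2 FPKM with EGFP and 25.2 FPKM after lncFABP4. The connective tissue proteoglycan DCN stood at 4235 ± 177 FPKM in the EGFP samples (SD, n = 3).

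As background, entry into mitosis is driven by the kinase CDK1 with a cyclin partner, after CDC25 phosphatases remove inhibitory phosphates from it. Kinetochores then join each chromosome to spindle microtubules, the checkpoint of BUB and MAD proteins holds the anaphase promoting complex until all are attached, and that complex, started by CDC20, marks securin and cyclin B for destruction. Most of these genes are transcribed late in the cycle and are low in resting cells. In cultured mouse preadipocyte lines the induction of fat cell formation is known to be accompanied by a few rounds of division before the cells stop cycling.

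Mitosis genes were mostly low in the EGFP samples and higher after lncFABP4 transduction. In the EGFP samples the median of the 45 models was 1.25 FPKM, and 19 of them had a mean under 1 FPKM; after lncFABP4 the median was 2.37 FPKM and 9 models had a mean under 1 FPKM. Every lncFABP4 sample lay above every EGFP sample in 25 of the 45 models, or 55.6%, against 18.6% of all models of the table. In none of the 45 did every lncFABP4 sample lie below every EGFP sample, against 13.8% of all models, and 20 overlapped. Whether more cells were in division or each dividing cell held more of these RNAs cannot be told apart in bulk samples.

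The 3 lncFABP4 samples did not carry this to the same degree. Among the 44 models detected in the EGFP samples, the median ratio to the EGFP mean was 1.27 in lncFABP4 replicate 1, 1.75 in replicate 2 and 2.02 in replicate 3. Among the 40 models with a mean of at least 0.5 FPKM, replicate 1 was the lowest of its group in 33 (82.5%), against 39.2% of all models of that level. In 11 of these 40 (27.5%) both other replicates stood at least 2 times as high as replicate 1, against 0.735% of all models. The plot of every member by sample shows the orange points of replicate 1 between those of EGFP and those of the other lncFABP4 samples in many rows. In 8 models replicate 1 lay within the range of the EGFP samples, and in others, such as CDK1 and AURKA, below it.

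**Figure D1:**
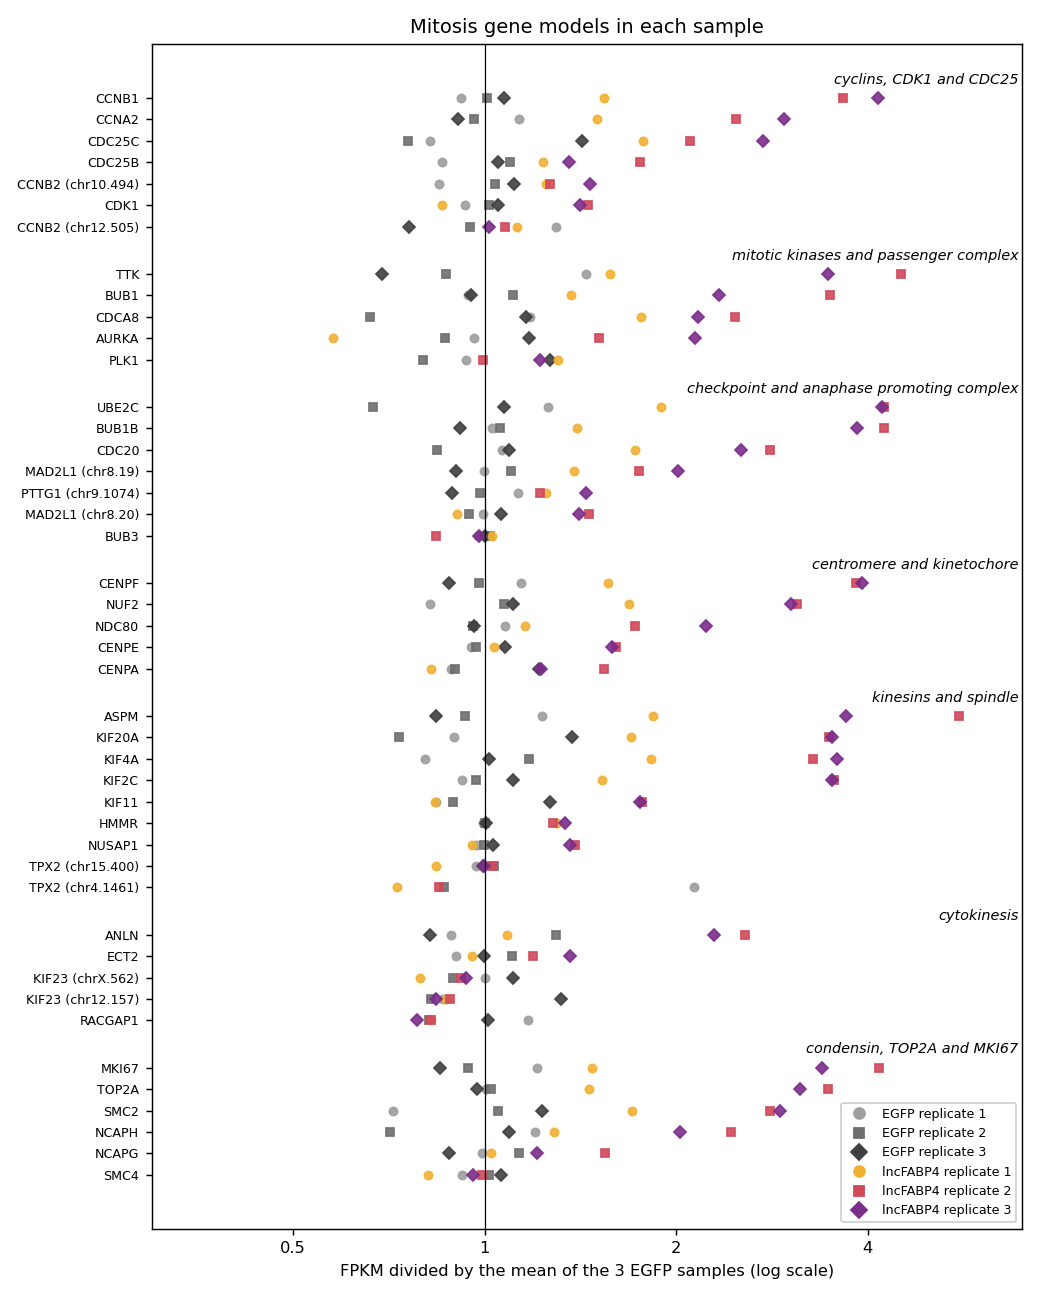
Each row is a gene model of the mitosis list, grouped by role, and each point is the FPKM of a sample divided by the mean of the 3 EGFP samples, on a log axis; values of 0 are not drawn, and the PTTG1 model at 0 in every EGFP sample is left out. In 25 of 45 models all lncFABP4 points lie to the right of all EGFP points, with replicate 1 mostly the nearest to EGFP.

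A test was run on models that reached 1 FPKM in 3 samples or more, with limma on log2(FPKM + 1) and Benjamini-Hochberg adjustment over all 11064 such models. Of the 45 mitosis models, 31 were tested and 14 were too low. At an adjusted p under 0.05, 11 of the 31 rose (35.5%, against 16.5% of all tested models) and 0 fell (against 10.2%). With TMM factors 10 members rose and 0 fell, while all tested models split into 1424 higher and 1449 lower, against 1827 and 1131 without them. CDC20 and CDCA8 reached the minimum in lncFABP4 samples only, so a difference was built into their entry. The called KIF20A and SMC2 reached it in 3 lncFABP4 samples but in 1 EGFP sample each, and UBE2C and NCAPH in 2 EGFP samples each. These 4 also needed lncFABP4 samples to enter, so for them a difference was built in to a part. The median log2 change was 0.31 over the 31 models and 0.05 over all tested models. A filter at a mean of 0.5 FPKM over all 6 samples, added after seeing the data, let in 40 models, of which 17 rose (42.5%, against 15.4% of all models so filtered) and 0 fell (against 9.74%). Of these 40, BUB1, BUB1B, CENPF, KIF4A and MKI67 had EGFP means under 0.5 FPKM and entered only through the lncFABP4 samples, so that the difference was built into their entry too; 4 of these 5 were among the calls. With no filter 9 of 45 rose (20.0%, against 8.05%) and 0 fell (against 5.25%).

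Part of these calls depended on single samples. NUF2, CDC20, UBE2C, SMC2, CCNA2 and HMMR were called whichever single sample was left out. CDCA8, KIF20A, TOP2A, NCAPH and MAD2L1 evm.model.chr8.19 lost the call in at least 1 such fit. Leaving out lncFABP4 replicate 1 gave 16 of 31 models higher (51.6%, against 18.3% of all tested models) and 0 lower (against 13.1%). Leaving out lncFABP4 replicate 2 gave 7 higher (against 10.2% of all tested models), as did leaving out replicate 3 (against 9.29%). Leaving out replicate 2 of both groups gave 1 (HMMR) against 7.79% of all tested models, and leaving out replicate 3 of both groups gave 0 against 3.03%.

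The cyclins and their kinase were all low. CCNA2, the cyclin of S phase and early mitosis, held 2.34, 1.99 and 1.88 FPKM with EGFP and 3.11, 5.15 and 6.13 FPKM after lncFABP4. The groups were apart, and CCNA2 rose 2.31-fold (log2 change 0.88, SE 0.19, limma adjusted p = 0.0120). CCNB1, the main mitotic cyclin, held 0.492, 0.542 and 0.576 FPKM against 0.827, 1.96 and 2.23 FPKM. Its groups did not overlap and its means differed 3.12-fold, but it was too low for the main test; with the filter on the mean it was called (log2 change 0.76, SE 0.20, limma adjusted p = 0.0275).

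CDK1, the kinase that these cyclins activate, differed less. It held 0.969, 1.06 and 1.09 FPKM with EGFP and 0.892, 1.51 and 1.47 FPKM after lncFABP4, so that replicate 1 lay below all EGFP samples and the groups overlapped (log2 change 0.16, 95% interval -0.14 to 0.45, limma adjusted p = 0.396). The CCNB2 model evm.model.chr10.494, of the second B-type cyclin, held 2.29, 2.81 and 3.01 FPKM against 3.38, 3.43 and 3.96 FPKM. These groups did not overlap, but the difference missed the threshold (log2 change 0.31, SE 0.11, limma adjusted p = 0.0670). The other CCNB2 model, evm.model.chr12.505, overlapped between the groups, with means of 2.21 and 2.37 FPKM. Of the phosphatases, CDC25B had means of 1.25 and 1.81 FPKM (limma adjusted p = 0.0818), and CDC25C, too low for the test, 0.278 and 0.612 FPKM; the groups did not overlap in either.

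Of the mitotic kinases and the passenger complex, which corrects faulty attachments, only CDCA8 was called in the main test. CDCA8, the borealin subunit of that complex, held 0.989, 0.554 and 0.974 FPKM with EGFP and 1.48, 2.08 and 1.81 FPKM after lncFABP4. All lncFABP4 samples were higher, 2.13-fold in the means (log2 change 0.60, SE 0.14, limma adjusted p = 0.0140), but the call was just lost without lncFABP4 replicate 2 (limma adjusted p = 0.0502). PLK1, a kinase with tasks from mitotic entry to division, was the most abundant of the group and held 5.04, 4.31 and 6.82 FPKM against 7.03, 5.36 and 6.59 FPKM. Its groups overlapped (log2 change 0.21, 95% interval -0.15 to 0.56, limma adjusted p = 0.345).

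AURKA, a kinase of the spindle poles, held 0.899, 0.810 and 1.10 FPKM in the EGFP samples against 0.540, 1.42 and 2.01 FPKM after lncFABP4. Replicate 1 was the lowest of all 6 samples and replicates 2 and 3 the highest, and AURKA was called without replicate 1 (log2 change 0.48, limma adjusted p = 0.0346) and not with it (log2 change 0.21, limma adjusted p = 0.509). The checkpoint kinases TTK and BUB1 were too low for the main test. TTK held 0.116 to 0.242 FPKM with EGFP and 0.264 to 0.758 FPKM after lncFABP4, and BUB1 0.284 to 0.334 against 0.413 to 1.05 FPKM. In neither did the groups overlap. BUB1 passed the filter on the mean only through the lncFABP4 samples and was not called (limma adjusted p = 0.0798).

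Checkpoint genes and those of the anaphase promoting complex included UBE2C, the enzyme that supplies the complex with ubiquitin. UBE2C held 1.52, 0.806 and 1.30 FPKM with EGFP and 2.28, 5.12 and 5.09 FPKM after lncFABP4. This was the largest rise among the called members, 3.45-fold in the means (log2 change 1.18, SE 0.25, limma adjusted p = 0.0104), and all lncFABP4 samples were above all EGFP samples. CDC20, the activator of the complex, held 0.908, 0.716 and 0.932 FPKM against 1.47, 2.39 and 2.15 FPKM. It rose 2.35-fold (log2 change 0.69, SE 0.14, limma adjusted p = 0.00848), again with no overlap.

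MAD2L1 encodes MAD2, the checkpoint protein that binds CDC20. Its model evm.model.chr8.19 held 2.16, 2.38 and 1.95 FPKM with EGFP and 2.99, 3.78 and 4.36 FPKM after lncFABP4, a rise of 1.71-fold (log2 change 0.57, SE 0.13, limma adjusted p = 0.0134); without EGFP replicate 3 or lncFABP4 replicate 3 it was not called, with adjusted p values up to 0.0519 in limma. The model next to it in number, evm.model.chr8.20, carries the same name by protein match and is far more abundant, so that whether it is MAD2L1 is uncertain. It held 79.6, 75.6 and 84.9 FPKM against 72.4, 117 and 113 FPKM. Its replicate 1 lay below every EGFP sample and its other lncFABP4 samples above them, so that it was not called (limma adjusted p = 0.221) unless replicate 1 was left out (limma adjusted p = 0.00307).

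BUB1B, which encodes the checkpoint protein BUBR1, was too low for the main test. It held 0.334, 0.344 and 0.298 FPKM with EGFP and 0.455, 1.38 and 1.25 FPKM after lncFABP4, and it was narrowly called with the filter on the mean (log2 change 0.58, limma adjusted p = 0.0487), which it passed only through the lncFABP4 samples. BUB3, its partner, held 16.5, 17.2 and 16.9 FPKM against 17.3, 14.2 and 16.6 FPKM, with overlapping groups (log2 change -0.08, 95% interval -0.28 to 0.13, limma adjusted p = 0.558). The more abundant model of PTTG1, the securin gene, had means of 2.23 and 2.91 FPKM with no overlap (limma adjusted p = 0.0827); the other was listed at 0 in all EGFP samples and at no more than 0.160 FPKM elsewhere.

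At the centromere, NUF2 and NDC80, partners in the complex that grips microtubules, were both higher in every lncFABP4 sample. NUF2 held 1.18, 1.54 and 1.59 FPKM with EGFP and 2.43, 4.45 and 4.35 FPKM after lncFABP4. It rose 2.60-fold (log2 change 0.93, SE 0.18, limma adjusted p = 0.00821) and was called whichever single sample was left out. NDC80 held 1.22, 1.09 and 1.09 FPKM against 1.31, 1.95 and 2.52 FPKM, which missed the threshold (log2 change 0.44, SE 0.15, limma adjusted p = 0.0669).

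CENPF, a large protein of the outer kinetochore, had means of 0.383 ± 0.0509 and 1.19 ± 0.511 FPKM (SD, n = 3). It was too low for the main test and was called with the filter on the mean (log2 change 0.63, limma adjusted p = 0.0316), which it passed only through the lncFABP4 samples. CENPE, a kinetochore motor, had means of 1.75 and 2.47 FPKM (limma adjusted p = 0.112). CENPA, the histone variant that marks centromeres, had means of 2.11 and 2.53 FPKM (log2 change 0.17, 95% interval -0.23 to 0.56) and was not called. In these 2 genes lncFABP4 replicate 1 lay within or below the range of the EGFP samples.

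Among kinesins and spindle proteins, KIF20A, a motor of the central spindle, held 0.733, 0.601 and 1.13 FPKM with EGFP and 1.39, 2.85 and 2.88 FPKM after lncFABP4. The groups were apart and KIF20A rose 2.89-fold (log2 change 0.87, SE 0.20, limma adjusted p = 0.0161); the call was lost without EGFP replicate 1 or lncFABP4 replicate 2 or 3 (limma adjusted p up to 0.0589). HMMR, a hyaluronan receptor that also binds the spindle, was high already in the EGFP samples, at 27.4, 27.6 and 27.6 FPKM, and held 35.7, 35.2 and 36.7 FPKM after lncFABP4. This was the smallest rise among the called members, 1.30-fold, and the one with the smallest adjusted p (log2 change 0.37, SE 0.06, limma adjusted p = 0.00492), and here replicate 1 stood between the other lncFABP4 samples.

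Of the other spindle genes 2 motors were called with the filter on the mean, both too low for the main test. KIF2C, which takes microtubules apart at the kinetochore, had means of 0.642 and 1.84 FPKM (log2 change 0.75, limma adjusted p = 0.0236), and KIF4A, which acts on chromosome arms and the central spindle, 0.341 and 0.988 FPKM (log2 change 0.56, limma adjusted p = 0.0209); KIF4A passed that filter only through the lncFABP4 samples. ASPM, a spindle pole protein, had the largest ratio of means of any member, 3.71, at 0.152 ± 0.0312 against 0.563 ± 0.284 FPKM (SD, n = 3), but was too low for either test. The motor KIF11 (0.617 and 0.896 FPKM), the microtubule binder NUSAP1 (0.659 and 0.814 FPKM) and the more abundant model of TPX2, which activates AURKA (5.07 and 4.84 FPKM), overlapped between the groups. The other TPX2 model stayed at or under 0.112 FPKM.

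The cytokinesis genes, which split the cell after the chromosomes have parted, had no call in 5 models, and the groups overlapped in all 5. Over all tested models 16.5% rose and 10.2% fell. Over all models of the table the groups did not overlap in 18.6% (higher) and 13.8% (lower). With only 5 models, this role could not be set apart from all models. ANLN, which links actin to the cleavage furrow, held 2.68, 3.92 and 2.48 FPKM with EGFP and 3.27, 7.75 and 6.94 FPKM after lncFABP4. It missed the threshold with replicate 1 (log2 change 0.75, SE 0.26, limma adjusted p = 0.0691) and passed it without (log2 change 1.07, limma adjusted p = 0.00400).

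RACGAP1, which with the motor KIF23 bundles the central spindle, held 13.3, 9.33 and 11.5 FPKM with EGFP and 9.38, 9.39 and 8.94 FPKM after lncFABP4. EGFP replicate 2 lay within the range of the lncFABP4 samples, and the difference was not called (log2 change -0.26, 95% interval -0.54 to 0.01, limma adjusted p = 0.140); without that sample RACGAP1 was called lower (log2 change -0.39, limma adjusted p = 0.0262). KIF23 had means of 6.38 and 5.51 FPKM in one model and 3.18 and 2.81 FPKM in the other, and ECT2, which activates the contractile ring, 4.16 and 4.87 FPKM, none of them called.

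Of the genes that shape chromosomes, TOP2A, which untangles sister DNA, held 1.41, 1.43 and 1.36 FPKM with EGFP and 2.04, 4.86 and 4.38 FPKM after lncFABP4. The EGFP samples were nearly equal, all lncFABP4 samples were higher, and TOP2A rose 2.68-fold (log2 change 0.93, SE 0.22, limma adjusted p = 0.0181). Its call was lost without any of EGFP replicates 1 and 3 and lncFABP4 replicates 2 and 3, with adjusted p values up to 0.0647 in limma. MKI67, the proliferation marker Ki-67 that coats mitotic chromosomes, held 0.501, 0.390 and 0.354 FPKM against 0.611, 1.73 and 1.41 FPKM. It did not overlap and differed 3.01-fold in the means; too low for the main test, it was called with the filter on the mean (log2 change 0.63, limma adjusted p = 0.0391), which it passed only through the lncFABP4 samples.

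Condensin, the ring complex that compacts chromosomes, was mixed. SMC2, a core subunit, held 0.626, 0.916 and 1.08 FPKM with EGFP and 1.49, 2.45 and 2.54 FPKM after lncFABP4 and rose 2.47-fold (log2 change 0.74, SE 0.16, limma adjusted p = 0.0122). NCAPH, the subunit that closes the ring, held 1.55, 0.914 and 1.41 FPKM against 1.66, 3.15 and 2.62 FPKM. It rose 1.92-fold (log2 change 0.59, SE 0.18, limma adjusted p = 0.0445), a call lost in all but 1 of the fits that left out a sample (limma adjusted p up to 0.129). SMC4, the core partner of SMC2, stood at 9.39 ± 0.673 and 8.65 ± 0.892 FPKM (SD, n = 3) and overlapped (log2 change -0.11, 95% interval -0.34 to 0.12, limma adjusted p = 0.444), and NCAPG had means of 2.09 and 2.63 FPKM (limma adjusted p = 0.234).

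**Figure D2:**
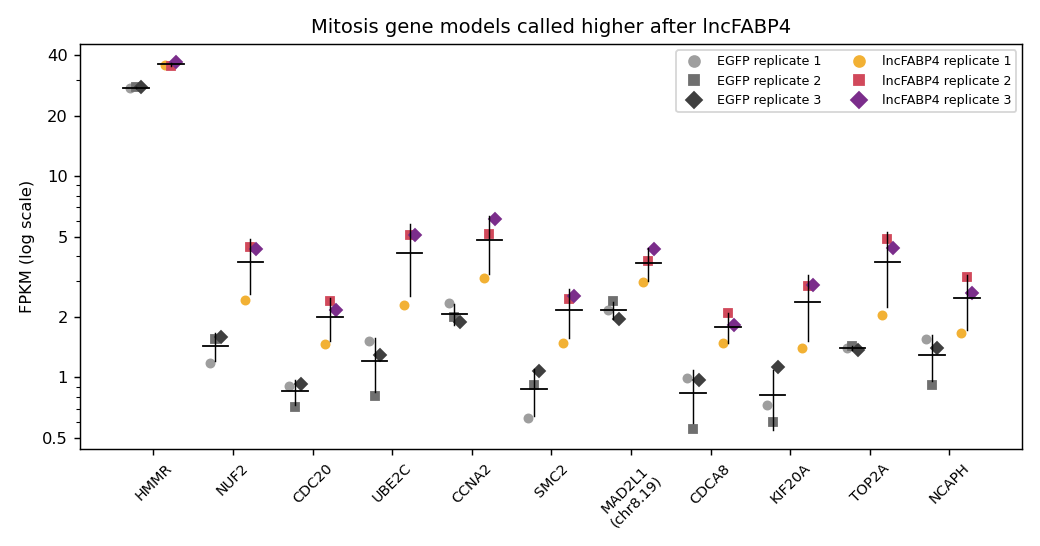
FPKM on a log axis of the 11 mitosis gene models that rose, in order of adjusted p, with EGFP samples to the left and lncFABP4 samples to the right of each pair; horizontal bars are means and vertical bars SD of 3 samples. In 10 of the 11 models lncFABP4 replicate 1 was the lowest of its group, against 39.2% of all models with a mean of at least 0.5 FPKM. In all 11 it lay above every EGFP sample, which the choice of called models largely built in.

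The ratio of the group means differed with the level in the EGFP samples. Of the 18 detected members under 1 FPKM there, 14 were at least 2 times as high after lncFABP4, against 15.3% of all models of that level. Of the 18 members from 1 to 5 FPKM, 4 were (against 2.45% of all such models), and of the 8 members of 5 FPKM or more 0 were (against 0.632%). The 8 were the abundant model named MAD2L1, whose name is uncertain, HMMR, BUB3, RACGAP1, SMC4, PLK1 and the more abundant models of KIF23 and TPX2, with ratios from 0.810 to 1.30. Low values carry more counting error, and the reads behind them are unknown. The EGFP mean set the level and was also the divisor of the ratio, so an EGFP mean low by error would raise the ratio too.

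**Figure D3:**
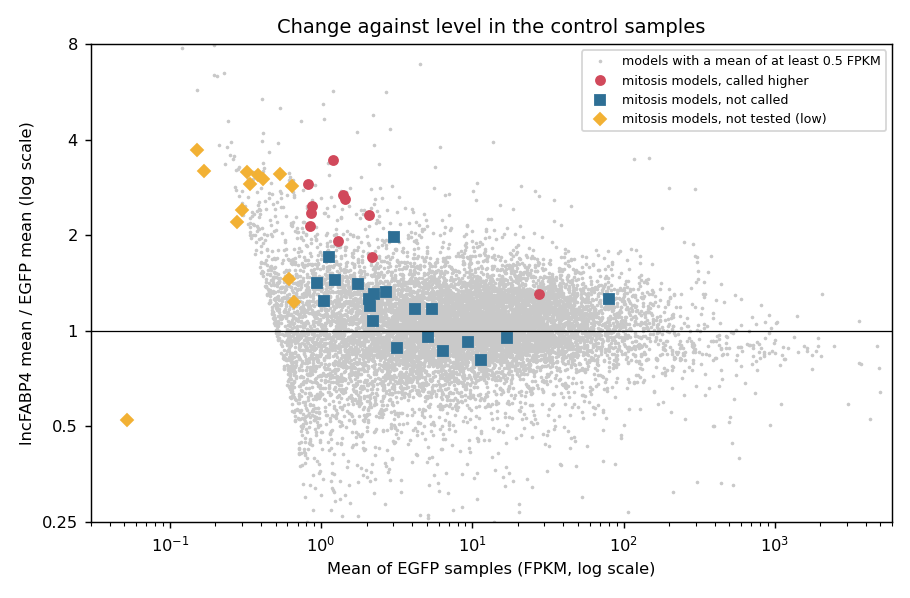
The ratio of the lncFABP4 mean to the EGFP mean is plotted against the EGFP mean, both on log axes; grey points are all models with a mean of at least 0.5 FPKM over the 6 samples (43 of them lie outside the range of the vertical axis) and coloured points the 44 mitosis models with a ratio. The members with ratios above 2 lie at low levels, and those of 5 FPKM or more lie between 0.810 and 1.30.

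Other genes of the cell cycle were taken from lists made by function, also with earlier results of these data known. Of 87 further mitosis genes, 83 were found, in 92 models; of 66 tested, 21 rose, 0 fell and 45 were not called (16.5% of all tested models rose), with a median log2 change of 0.24. KIFC1, a minus-end spindle motor, rose from 2.97 ± 0.114 to 8.49 ± 0.551 FPKM (SD, n = 3; log2 change 1.26, limma adjusted p = 0.000178). TACC3, which stabilises spindle fibres, rose from 1.38 to 3.58 FPKM (log2 change 0.95), SKA2 of the kinetochore from 16.5 to 25.3 FPKM (0.59) and NCAPD3 of the second condensin from 2.68 to 4.58 FPKM (0.60). Leaving out a single sample gave 12 to 30 models higher in this list, while 9.29% to 18.3% of all tested models rose.

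Of 16 genes for the transcription factors that act on mitosis genes, 12 were found and 11 models tested, of which 1 rose and 0 fell (against 16.5% and 10.2% of all tested models), a share of rises below that of all models. It was MYBL2, which helps switch these genes on, with 1.20, 0.973 and 1.17 FPKM with EGFP and 3.28, 4.26 and 3.77 FPKM after lncFABP4 (log2 change 1.17, SE 0.11, limma adjusted p = 0.000489). Its partner FOXM1, named after its values were seen, was under the minimum for testing, at no more than 0.0154 FPKM with EGFP and at 0.232, 0.303 and 0.210 FPKM after lncFABP4. In both genes every lncFABP4 sample, replicate 1 included, stood above every EGFP sample. Of the 13 models of this list, all lncFABP4 samples were higher in 3 and lower in 3, against 18.6% and 13.8% of all models. The median log2 change of its 11 tested models was -0.08.

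Of 14 genes for inhibitors of the cycle and pocket proteins, which hold cycle genes silent, 13 were found and 13 models tested; 3 rose, 3 fell and 7 were not called (against 16.5% higher and 10.2% lower of all tested models). The CDK inhibitor CDKN1B fell from 17.1 ± 0.826 to 11.2 ± 1.20 FPKM (SD, n = 3; log2 change -0.57, limma adjusted p = 0.00395) and the pocket protein RBL2 from 29.7 to 23.9 FPKM (log2 change -0.30). The inhibitor CDKN2B rose from 2.69 to 5.20 FPKM (log2 change 0.75) and the growth-restraining BTG2 from 16.8 to 21.4 FPKM (log2 change 0.33). The calls of BTG2 and RBL2 were lost in at least 1 of the fits that left out a sample (limma adjusted p up to 0.0648 and 0.0840).

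Genes of S phase, in which DNA is copied before mitosis, rose in 14 of 21 tested models, with 0 lower (against 16.5% and 10.2% of all tested models) and a median log2 change of 0.58; 22 of 23 listed genes were found. Their median ratio to the EGFP mean was 1.51, 1.69 and 1.61 in lncFABP4 replicates 1, 2 and 3, over 23 models with a mean of at least 0.5 FPKM. Over the 40 mitosis members of that level it was 1.25, 1.73 and 1.88, and over all such models 1.04, 1.03 and 1.04. Replicate 1 was thus nearer to the other replicates in the S phase medians than in the mitosis medians, a difference that was not tested. TK1, the thymidine kinase, held 10.8, 13.1 and 12.9 FPKM in the lncFABP4 samples and 2.16, 2.37 and 3.98 FPKM in the EGFP samples.

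**Figure D4:**
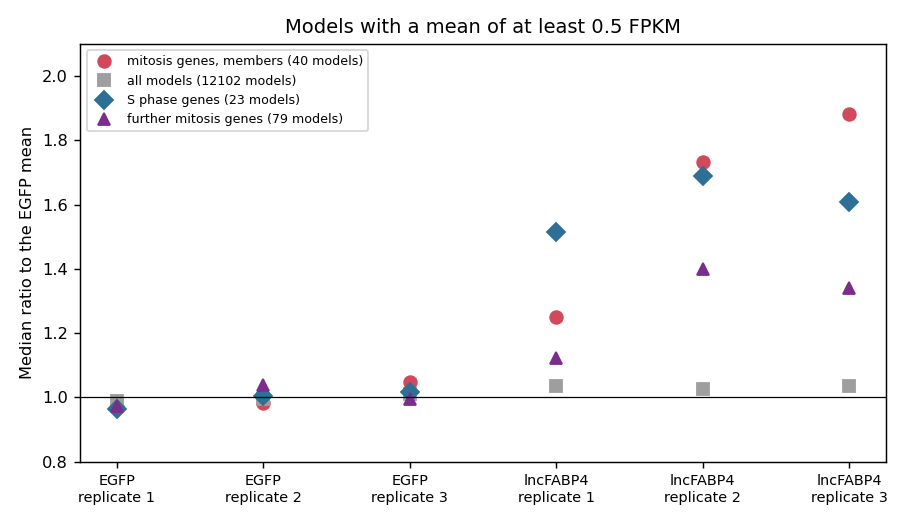
Each point is the median, over the models of a list with a mean of at least 0.5 FPKM, of the ratio of a sample to the EGFP mean. In lncFABP4 replicate 1 the median was 1.25 for the mitosis members and 1.51 for S phase genes; in replicates 2 and 3 it was 1.73 and 1.88 for the members and 1.69 and 1.61 for S phase genes, while all models stayed between 1.03 and 1.04.

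Markers of cell types moved between the groups as well, where 16.5% of all tested models rose and 10.2% fell. Of 9 fat cell markers, 7 were found and 4 tested: FABP4 and PPARG rose, LPL fell from 2.78 to 0.999 FPKM and CIDEC, at 2.07 and 2.54 FPKM, was not called; the summed level of the list was 166 to 215 FPKM with EGFP and 6532 to 12032 FPKM after lncFABP4, most of it from FABP4 in both groups. Of 8 progenitor markers, 5 of 6 tested models fell, and their summed level was 11028 to 11691 FPKM with EGFP and 6910 to 7499 FPKM after lncFABP4. Both tested models of the skeletal muscle list fell (DES and MYH3; summed level of the list 4.33 to 5.05 against 2.21 to 2.84 FPKM). Smooth muscle and pericyte markers summed to 132 to 193 against 189 to 244 FPKM, with 2 of 4 tested models higher and 1 lower. Endothelial markers summed to 3.11 to 3.52 against 4.39 to 4.63 FPKM, nearly all from VWF, the only tested model, which rose, with PECAM1 at 0 in every EGFP sample and at most 0.0191 FPKM otherwise. Leukocyte markers summed to 8.80 to 10.8 against 8.73 to 9.47 FPKM, nearly all from CD68, which was not called, with PTPRC at most 0.0113 FPKM, and epithelial markers to no more than 0.181 FPKM. The part of these shifts in the levels of mitosis genes was not tested.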

How the data were processed

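RNA of 6 samples (3 EGFP, 3 lncFABP4) was sequenced on a DNBSEQ platform, per the labels' protocols. The deposited table holds decimals read as FPKM, since its header names no unit and the column totals differ. Per the submitters' processing notes the authors used HISAT2 and StringTie. Neither genome build nor annotation is given in the sources used here. The reads behind a value are unknown. Relative depth was estimated from models under 0.3 FPKM, of which 2.50% to 3.23% shared a step, against 0.595% to 0.734% in an average window.

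Models that reached 1 FPKM in 3 samples or more were tested with limma 3.58.1 in R 4.3.3 (mean-variance trend, two-sided, no replicate block, threshold 0.05) on log2(FPKM + 1), which understates the change of low genes. Fold values are ratios of group means. All 43 members are accounted for; sample values are given for called members, MKI67, TOP2A, CDK1, CCNB1 and the 2 models of smallest p in each role, and up to 4 called genes are named per other list. The fit was checked on simulated data with independent noise. Changes were put only into models with a mean log2(FPKM + 1) above 1 in the EGFP samples. The check thus did not cover the called CDC20, CDCA8, KIF20A and SMC2, or a shift shared by many models of a sample. Members and lists were chosen with earlier results of these data known. A planned promoter scan was not made.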

Additional observations from a re-analysis of the deposited data

How the results depend on the processing

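The number of all models called was 2958. It was 4982 with sample weights and 1673 to 3468 when a single sample was left out; without replicate 1, 2 or 3 of both groups it was 2439, 1406 and 567. The number of members called higher was 11. It was 1 with a filter at 5 FPKM, which left 8 members (against 20.0% of all models so filtered), 19 of 31 with sample weights (against 26.6% of all tested models), 17 with the filter on the mean, 7 to 16 without a single sample, and 15, 1 and 0 without replicate 1, 2 or 3 of both groups. Of all tested models, 9.29% to 18.3% rose without a single sample. Without replicate 1, 2 or 3 of both groups, 13.1%, 7.79% and 3.03% rose. Members called lower numbered 0 (against 10.2% of all tested models), but 1 (RACGAP1) with sample weights (against 18.4%). Without a single sample 0 to 1 members were called lower, against 5.83% to 13.1% of all tested models. The median log2 change of the members was 0.31 and turned to -0.068 with the filter at 5 FPKM. TMM and median-of-ratios factors moved the median change of all models from 0.05 to 0.0006 and -0.0012 (log2). Both left 10 of the 11 calls, without NCAPH, against 12.9% and 12.8% of all tested models higher. With other pseudocounts or rescaling without FABP4 the same 11 models were called, against 16.4%, 16.5% and 17.3% of all tested models higher. Fits without a replicate number of both groups and the filter on the mean were chosen after seeing the data.

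With the replicate number as a block 12 members were called higher, against 18.6% of all tested models. Of these 12, 10 were shared with the unblocked fit. Nothing says that the numbers pair the samples, so the main fit had no block. Deviations of samples of the same number correlated at 0.18, 0.29 and -0.08, and those of other numbers at -0.33 to 0.20. These values did not decide whether the numbers pair the samples. Some uncalled members changed sign, with limma adjusted p from 0.852 to 0.996. Without a single sample the log2 change of BUB3 ranged from -0.13 to 0.0042, of CCNB2 evm.model.chr12.505 from -0.037 to 0.23, of KIF23 evm.model.chr12.157 from -0.26 to 0.031, of TPX2 evm.model.chr15.400 from -0.10 to 0.014 and of AURKA from -0.0019 to 0.48. Without replicate 2 of both groups it was -0.029 for CENPA and 0.019 for BUB3. Without replicate 3 of both groups it was -0.0091 for that CCNB2 model and 0.048 for that KIF23 model, and with sample weights 0.0027 for that TPX2 model. Across all settings 3 to 36 of the further mitosis models and 4 to 16 of the S phase models were higher. Over the same settings 3.03% to 26.6% of all models so tested rose. Summing models per name gave no value for single models of a shared name.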
